A study of Homo sapiens with 15 samples.

Results

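The integrin, laminin and collagen chains are the receptors and the structural proteins through which a cell holds on to its extracellular matrix. They were defined by symbol, among protein-coding genes. The symbols were ITGA with letters or digits, ITGB1 to ITGB8, LAMA, LAMB or LAMC with a digit, and COL with digits, A and digits. This family was chosen with earlier results of these data known, so its counts of called genes are a description. The rule found 82 genes among the 61552 of the counts table. Of these, 44 encode collagen chains, 18 integrin alpha chains, 8 integrin beta chains and 12 laminin chains. All were measured by RNA-Seq of polyadenylated RNA in MDA-MB-468 cells, an established human cell line of triple-negative breast cancer with amplified EGFR, in 15 libraries that form 5 groups of 3.

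In the drug experiment, parental cells were serum starved for 12 h and stimulated with 10 ng/mL EGF for 12 h. EGF was given alone (EGF), with 10 µM cSNX1.3, a peptide that blocks the interaction of EGFR with Sorting Nexin 1 (labelled cSNX), or with 15 µM erlotinib, an inhibitor of the EGFR tyrosine kinase (labelled ERL). In the line experiment, both groups carried a lentiviral, inducible shRNA against endogenous EGFR and a GFP-tagged EGFR put back by transfection, either wildtype (shEGFR-WT, called WT) or with mutations in its nuclear localization sequence (shEGFR-NLS, called ΔNLS). These cells were also given EGF, at a dose that the sources used here do not state for them. WT and ΔNLS are each 1 line. The mutation and any other difference between the lines cannot be told apart, and the sources do not say whether a line is 1 clone. Nothing says that the 3 replicates of a group came from separate cultures, and the p-values then measure only the spread between these libraries, which may be technical.

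Total counts of read pairs ranged from 22915676 to 35900649 per library. Levels are given as CPM, counts scaled to the size of the library. The check of the lines is EGFR itself, which was at 1168 to 1467 CPM in WT and 1711 to 1781 CPM in ΔNLS (log2 fold change (log2FC) 0.37 ± 0.09 (SE), edgeR adjusted p = 0.00367). Reads of the introduced EGFR were counted together with any endogenous ones. Of 9 epithelial marker genes, 6 were lower and 1 was higher with erlotinib. With cSNX1.3, 1 was higher and 1 lower, and 7 were lower in ΔNLS. Most of the level of this list came from keratins, so its sum says little on the other markers. Their summed level was 19291 to 24973 CPM in EGF, 10411 to 12539 CPM with erlotinib, 22211 to 28580 CPM with cSNX1.3, 22018 to 25530 CPM in WT and 13829 to 16997 CPM in ΔNLS. The part of these shifts in the results on integrins, laminins and collagens was not tested. The fibroblast markers DCN, LUM and POSTN and the leukocyte markers PTPRC and CD3E were at or near 0 in these cultures. The leukocyte marker CD14 was not, and the summed level of its list is given with the leukocyte integrins below. The summed level of 5 endothelial markers was 9.5056 to 9.9998 CPM in EGF, 12.3 to 15.1 CPM with erlotinib and 9.17 to 10.97 CPM with cSNX1.3. It was 14.5 to 15.4 CPM in WT and 15.99 to 17.4 CPM in ΔNLS. Of these 5 genes, 2 were higher and 1 lower with erlotinib, 1 was higher with cSNX1.3 and 1 was higher in ΔNLS. The summed level of 7 fibroblast markers was at most 3.38 CPM in the drug experiment and, through FAP, 24.2 to 34.1 CPM in WT against 7.89 to 9.07 CPM in ΔNLS. In bulk RNA of this kind, fewer cells of a type and less RNA per cell cannot be told apart.

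Integrins are pairs of an alpha and a beta chain that span the cell membrane. The alpha chain largely sets what is bound (laminins, collagens, or proteins with an RGD motif such as fibronectin and vitronectin), and the beta chain links the pair to the cytoskeleton. Laminins are trimers of an alpha, a beta and a gamma chain and form, with the collagen IV network, the sheet under epithelia that is called the basement membrane. In basal epithelial cells the pair of ITGA6 and ITGB4 binds laminin-332 (to which LAMA3 and LAMB3 belong) in the hemidesmosome, a rivet-like junction that also holds the transmembrane collagen COL17A1. EGFR signaling is known to act on this junction.

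Chains of epithelial adhesion were among those with the highest RNA levels. Set per length of the gene's exons, ITGB4 had the highest level of all 82 genes in EGF, at 59.3 CPM per kilobase, and ITGB5, a beta chain of the vitronectin receptor, came next at 43.9 CPM per kilobase. ITGA6, ITGA3 and ITGB1 followed with 23.1, 21.9 and 21.1 CPM per kilobase, and LAMB3 was at 18.1 CPM per kilobase. The spread of neighboring genes in this order was not compared across genes. The length used joins all annotated exons of a gene and can exceed that of a transcript. It was 6761 bases for ITGB4, 4647 for LAMB3 and 14561 for ITGB1. This order, and the levels and shares per kilobase below, depend on that choice, and other lengths were not tried. At the other end, 13 genes had at most 3 counts in every library, and 25 genes passed the filter on low counts in neither experiment. These 25 were COL10A1, COL11A1, COL11A2, COL19A1, COL1A2, COL20A1, COL22A1, COL24A1, COL25A1, COL27A1, COL28A1, COL2A1, COL3A1, COL6A5, COL6A6, COL8A1, COL8A2, COL9A1, ITGA10, ITGA11, ITGA4, ITGA8, ITGAD, LAMA1 and LAMB4. COL1A2 and COL3A1, which fibroblasts make in quantity, were thus too low to test. The filter left 50 of the 82 genes in the drug experiment and 55 in the line experiment, with 48 in both.

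The sequences just before the start of some of these genes are shown because the data below turn on the laminin-332 and hemidesmosome chains, which were all higher with cSNX1.3, and on a pair of collagen IV genes that lie head to head. RefSeq promoters (GRCh38.p14) were matched for 58 of the 82 genes, with entries for LAMA3, LAMB3, ITGA6 and COL17A1 of the hemidesmosome group. Each line gives the 250 bases before the start on the strand of the gene, and the line of the collagen IV pair gives the whole interval between both starts, on the plus strand. Capitals mark exact matches, on either strand, to the AP-1 site TGACTCA, the TATA box TATAAA and the GC box GGGCGG.
LAMA3, chr18:23872770-23873019, plus strand: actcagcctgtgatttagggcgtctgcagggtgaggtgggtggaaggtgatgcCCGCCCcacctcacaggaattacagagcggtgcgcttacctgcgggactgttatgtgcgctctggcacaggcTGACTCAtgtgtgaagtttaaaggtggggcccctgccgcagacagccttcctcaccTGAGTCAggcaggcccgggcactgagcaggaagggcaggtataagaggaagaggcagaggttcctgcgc
LAMB3, chr1:209652426-209652675, minus strand: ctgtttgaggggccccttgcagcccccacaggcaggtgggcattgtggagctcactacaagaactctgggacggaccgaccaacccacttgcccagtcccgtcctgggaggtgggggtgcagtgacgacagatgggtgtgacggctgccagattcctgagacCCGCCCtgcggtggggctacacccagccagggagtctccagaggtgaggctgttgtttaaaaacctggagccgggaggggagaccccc
ITGA6, chr2:172427086-172427335, plus strand: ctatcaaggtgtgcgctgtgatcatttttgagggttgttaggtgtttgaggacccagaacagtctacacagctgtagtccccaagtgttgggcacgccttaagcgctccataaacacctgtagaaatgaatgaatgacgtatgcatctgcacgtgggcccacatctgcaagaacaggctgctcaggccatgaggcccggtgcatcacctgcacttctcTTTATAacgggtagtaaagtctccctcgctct
COL17A1, chr10:104085881-104086130, minus strand: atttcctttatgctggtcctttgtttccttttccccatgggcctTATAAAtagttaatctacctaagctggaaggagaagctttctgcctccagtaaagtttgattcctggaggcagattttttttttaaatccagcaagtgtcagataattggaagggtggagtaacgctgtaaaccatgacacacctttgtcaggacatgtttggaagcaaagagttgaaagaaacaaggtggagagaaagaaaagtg
COL4A1 and COL4A2, chr13:110307158-110307283, plus strand: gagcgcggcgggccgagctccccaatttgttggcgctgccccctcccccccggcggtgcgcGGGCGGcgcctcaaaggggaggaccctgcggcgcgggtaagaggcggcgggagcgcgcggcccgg

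In these letters LAMA3 held AP-1 matches at 125 to 119 and at 69 to 63 bases before its start. Over windows from 250 bases before to 50 after a start, TGACTCA was found in 4.92% of all 27305 promoters and in 2 of the 58 (ITGA5 and LAMA3). TATAAA was found in 12% of all and in 6 of the 58, among them ITGA6 (32 to 27 bases before its start) and COL17A1 (206 to 201 bases before its start). The GC box was found in 44.6% of all and in 32 of the 58. A match describes the letters and is not a site of binding.

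Erlotinib and cSNX1.3 were each compared with EGF, and ΔNLS with WT. This set kinase inhibition beside a peptide made to block the nuclear route of EGFR and a mutation of its nuclear localization sequence. These libraries do not measure nuclear EGFR, and no group received cPTD4, the control peptide that the authors used in other assays. The authors call it probable that cSNX1.3 also affects other interactions between proteins. The part of such effects was not tested. Erlotinib lowered more of the chains than it raised, and cSNX1.3 raised more than it lowered. In erlotinib vs. EGF, 21 of the 50 genes tested were lower, beside 21.2% of all genes tested, and 6 were higher, beside 22.8% of all genes. In cSNX1.3 vs. EGF, 16 of the 50 were higher, beside 3.38% of all genes, and 5 were lower, beside 2.69% of all genes. In ΔNLS vs. WT, 23 of the 55 genes tested were lower, beside 21.0% of all genes, and 13 were higher, beside 20.4% of all genes. In either direction these are 27 of 50 with erlotinib (44.0% of all genes), 21 of 50 with cSNX1.3 (6.07% of all genes) and 36 of 55 in ΔNLS (41.4% of all genes).

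Higher chains thus made up a smaller share with erlotinib than among all genes, and both shares in ΔNLS are to be read against those of all genes. The median log2FC of the chains tested was −0.32 in erlotinib vs. EGF, 0.24 in cSNX1.3 vs. EGF and −0.19 in ΔNLS vs. WT, where the medians of all genes lay between 0.00 and 0.02. Both drug comparisons share the EGF libraries, so their values are given side by side and are not independent of each other. Passing the filter rested on only 1 of the groups compared for COL6A3, COL7A1, ITGA7 and ITGB7 with erlotinib, for COL7A1, COL9A3 and LAMC3 with cSNX1.3 and for COL14A1, COL26A1 and ITGA1 in the lines. The counts with cSNX1.3 depended on single libraries, with 10 genes higher without cSNX1.3 replicate 2, 1 gene lower without EGF replicate 1 or EGF replicate 3, and 3 genes lower without any one of the cSNX1.3 libraries.

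**Figure D1:**
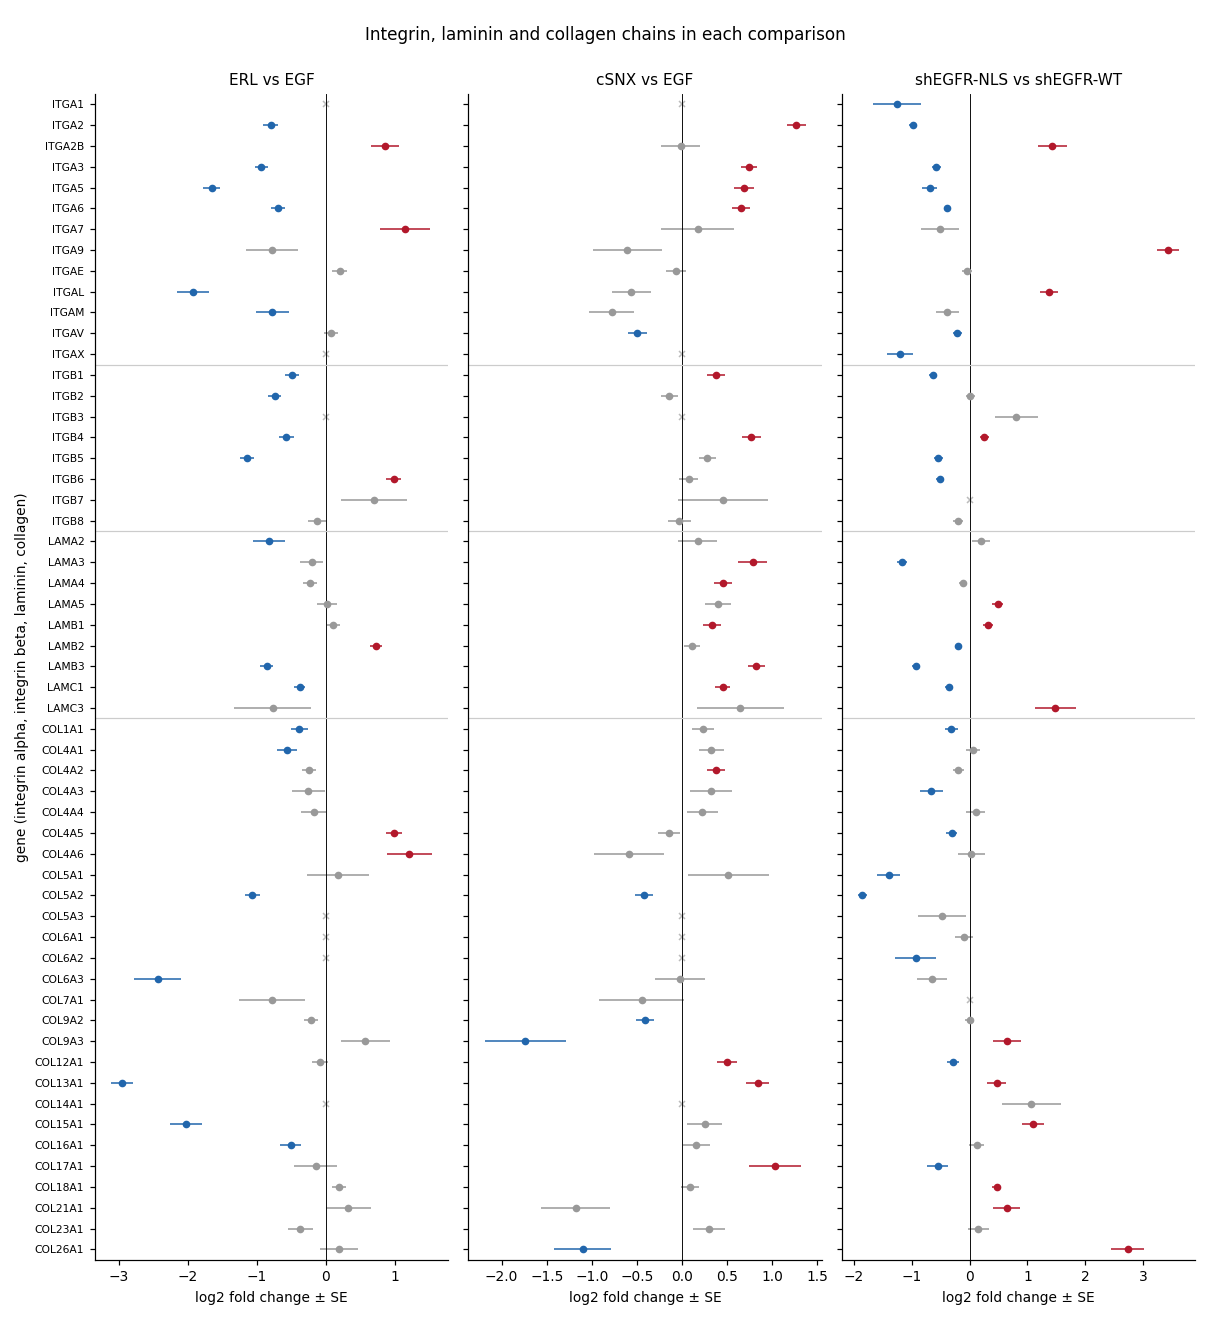
Log2 fold change ± SE (edgeR) of the chains tested in at least 1 experiment, for ERL vs EGF, cSNX vs EGF and shEGFR-NLS vs shEGFR-WT; red marks an adjusted p under 0.05 and higher, blue the same and lower, gray not called, and a gray cross a gene not tested in that experiment (3 libraries per group). The SE was derived from the edgeR F statistic, and the horizontal scale differs between panels. ITGA2, ITGA3, ITGA5, ITGA6 and LAMB3 are blue with ERL, red with cSNX and blue in shEGFR-NLS, while ITGA9 has the highest value in the lines, 3.43.

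Among the laminin-332 and hemidesmosome chains, 5 are described (ITGA6, ITGB4, LAMA3, LAMB3 and COL17A1). With cSNX1.3, all 5 of them were higher than in EGF, with a median log2FC of 0.79. With erlotinib, 3 of the 5 were lower, and LAMA3 and COL17A1 did not pass the test. In ΔNLS, 4 of the 5 were lower than in WT and ITGB4 was higher. On GRCh38, in GENCODE 44, LAMB3 (ENSG00000196878) lies at chr1:209614870-209652425, LAMA3 (ENSG00000053747) at chr18:23689453-23956222, ITGB4 (ENSG00000132470) at chr17:75721328-75757818, ITGA6 (ENSG00000091409) at chr2:172427354-172506459 and COL17A1 (ENSG00000065618) at chr10:104031286-104085880. These genes were chosen with earlier results of these data known, so their counts are a description.

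LAMB3, the beta chain of laminin-332, was highest with the peptide and lowest with the kinase inhibitor in the drug experiment. It was at 80.8, 88.1 and 83.7 CPM in EGF, at 157, 146 and 145 CPM with cSNX1.3 and at 52.2, 42.2 and 44.9 CPM with erlotinib. The groups did not overlap, and the log2FC was 0.83 ± 0.09 with cSNX1.3 (edgeR adjusted p = 5.41e-05) and −0.86 ± 0.09 with erlotinib (edgeR adjusted p = 2.44e-06). In the lines LAMB3 was at 193, 200 and 188 CPM in WT and at 112, 93.5 and 99.6 CPM in ΔNLS (log2FC −0.93 ± 0.08, edgeR adjusted p = 6.52e-08).

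LAMA3, the alpha chain, differed from LAMB3 in its response to erlotinib. Its level per length in EGF, 0.617 CPM per kilobase, was below that of LAMB3. It was at 9.14, 6.94 and 10.7 CPM in EGF and 13.1, 15.1 and 18.0 CPM with cSNX1.3, where it was higher in every library (log2FC 0.79 ± 0.16, edgeR adjusted p = 0.00719). With erlotinib it was at 7.81, 6.77 and 8.65 CPM, which overlapped EGF (log2FC −0.21 ± 0.17, edgeR adjusted p = 0.338). Between the lines it had the greatest fall among the laminins, from 38.1, 39.7 and 43.7 CPM in WT to 16.5, 19.2 and 18.6 CPM in ΔNLS (log2FC −1.16 ± 0.09, edgeR adjusted p = 2.96e-08). The RefSeq start whose upstream letters are printed above lies inside the LAMA3 gene as GENCODE draws it, and counts per gene do not tell its transcripts apart.

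ITGB4, which reaches from laminin to the keratin filaments, was at 398, 405 and 400 CPM in EGF, at 741, 673 and 633 CPM with cSNX1.3 (log2FC 0.77 ± 0.10, edgeR adjusted p = 0.000266). With erlotinib it was at 309, 238 and 261 CPM (log2FC −0.57 ± 0.10, edgeR adjusted p = 0.000387). It rose with the peptide and fell with the kinase inhibitor, with no overlap. Between the lines it went against the rest of the group, with 638, 563 and 631 CPM in WT and 773, 672 and 735 CPM in ΔNLS (log2FC 0.25 ± 0.08, edgeR adjusted p = 0.0179). This small difference no longer passed the test without ΔNLS replicate 1 or ΔNLS replicate 3 (edgeR adjusted p up to 0.0778). ITGA6, its alpha partner, was at 148, 167 and 149 CPM in EGF, 274, 226 and 231 CPM with cSNX1.3 and 88.0, 105 and 93.4 CPM with erlotinib. Its log2FC was 0.66 ± 0.10 with cSNX1.3 (edgeR adjusted p = 0.000622) and −0.69 ± 0.10 with erlotinib (edgeR adjusted p = 4.73e-05). ITGA6 fell in ΔNLS, from 179, 182 and 180 CPM in WT to 138, 144 and 133 CPM (log2FC −0.38 ± 0.06, edgeR adjusted p = 0.00018). The ITGA6 and ITGB4 chains thus moved in opposite directions between the lines.

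COL17A1, the transmembrane collagen of the hemidesmosome, was near the lower limit of detection. It was at 0.98, 0.631 and 1.07 CPM in EGF and 1.31, 2.19 and 1.96 CPM with cSNX1.3 (log2FC 1.03 ± 0.29, edgeR adjusted p = 0.0457). This call was lost without any one of EGF replicates 1, 2 and 3 or cSNX1.3 replicates 2 and 3, with an edgeR adjusted p of up to 0.209. With erlotinib it was at 0.734, 0.816 and 0.879 CPM, among the EGF values (log2FC −0.14 ± 0.31, edgeR adjusted p = 0.738). In the lines it was at 2.58, 2.39 and 2.69 CPM in WT and 1.90, 1.63 and 1.69 CPM in ΔNLS (log2FC −0.55 ± 0.18, edgeR adjusted p = 0.0208). The call was lost without WT replicate 1 or 3 or ΔNLS replicate 2 or 3 (edgeR adjusted p up to 0.0687).

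**Figure D2:**
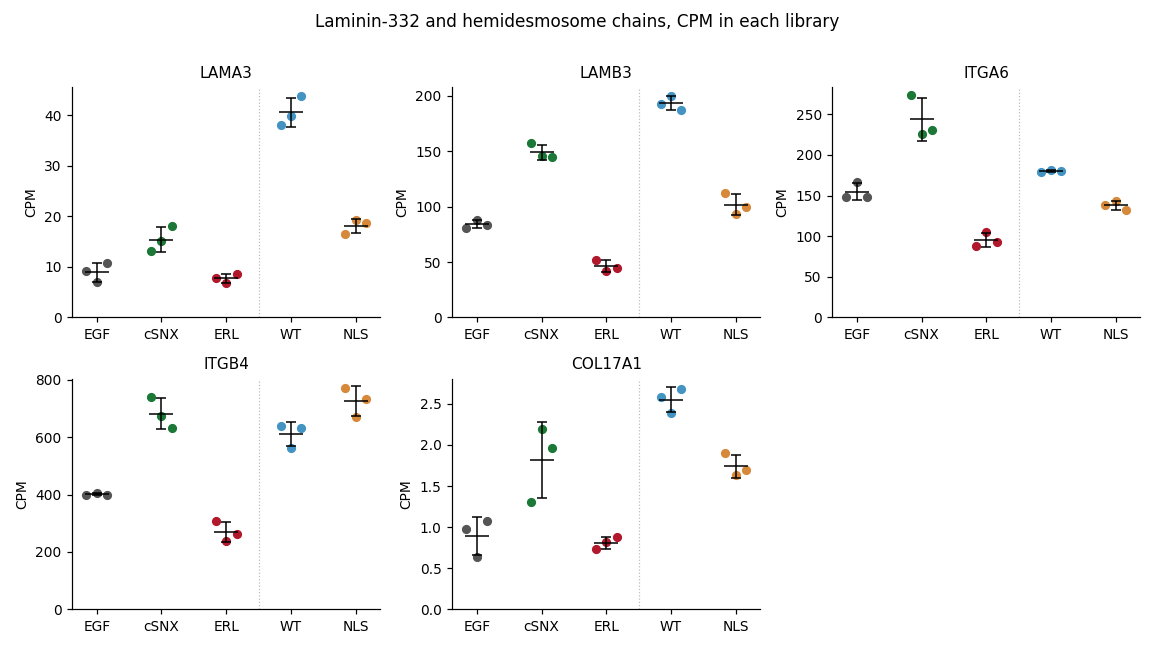
CPM in each library (dots) of LAMA3, LAMB3, ITGA6, ITGB4 and COL17A1, with the group mean and SD (bar and whiskers, n = 3), for EGF, cSNX and ERL on the left of the dotted line and WT and NLS on its right; the experiments were scaled separately and the vertical axes start at 0. The cSNX libraries lie above the EGF libraries in all 5 panels, and the NLS libraries lie below WT in every panel except ITGB4.

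A direct comparison of both treatments and a test of the difference between the effects of mutation and peptide were made in the same way. In cSNX1.3 vs. erlotinib, 29 of the 50 chains were higher, beside 27.6% of all genes, and 11 were lower, beside 28.5% of all genes (56.1% in either direction). All 5 hemidesmosome chains described above were among the higher ones, from 0.99 for LAMA3 to 1.68 for LAMB3 on the log2 scale. In the interaction of both experiments (the ΔNLS effect minus the cSNX1.3 effect), 22 of 57 chains were lower, beside 11.8% of all genes, and 9 were higher, beside 11.3% of all genes (23.1% in either direction). These 5 chains were lower in this contrast, and the difference was −1.75 ± 0.12 for LAMB3 (edgeR adjusted p = 1.37e-09), −1.95 ± 0.19 for LAMA3 (edgeR adjusted p = 9.82e-08) and −0.51 ± 0.14 for ITGB4 (edgeR adjusted p = 0.0103). The mutation and the peptide, both made to keep EGFR out of the nucleus, thus differed in these chains beyond the spread between libraries. The parental cells and the lines were separate experiments, and a difference in cell background and a difference between mutation and peptide cannot be told apart.

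Of the 48 chains tested in both experiments, 18 were called with cSNX1.3 and in ΔNLS, which is 85.7% of the 21 called with cSNX1.3 and 54.5% of the 33 called in ΔNLS. Over all genes, the calls shared were 64.7% of those with cSNX1.3 and 9.63% of those in ΔNLS. The directions of these 18 chains were opposite for 13, with 11 that rose with the peptide and fell in the mutant line. Of the 610 genes of any kind called in both comparisons, 234 rose with the peptide and fell in the mutant line. The directions were the same for ITGAV and COL5A2, both lower, and for LAMB1, COL13A1 and ITGB4, all higher. Each of these 5 had a call that was lost without single libraries, for COL5A2 and LAMB1 with cSNX1.3 and for the others in ΔNLS. Of the opposite chains, ITGA2, ITGA3, ITGA5, ITGA6, LAMA3, LAMB3 and LAMC1 kept both calls without any one library. COL9A3, COL12A1, COL17A1, COL26A1 and ITGB1 did not. Among all genes called in both comparisons, 61.5% had opposite directions. With erlotinib and in ΔNLS, 19 chains were called in both, which is 70.4% of the 27 called with erlotinib and 57.6% of the 33 called in ΔNLS. Over all genes these shares were 47.9% and 51.1%. Of these 19 chains, 11 were lower in both, beside 695 of the 3241 genes of any kind called in both. Opposite directions were found for 7 of these 19 chains, while 61.3% of all genes called in both comparisons had opposite directions.

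The makeup of the laminins was described by the share of each chain in the CPM per kilobase of its class. The same was done below for beta chains that pair with ITGAV and for collagen IV. All these shares were chosen after the values were seen, so they are a description. With 3 libraries in each group, an exact two-sided permutation test cannot give a p below 0.1. LAMB3 made up 46.8% ± 1.97 (SD, n = 3) of the beta chains in EGF, 58.1% ± 1.47 with cSNX1.3 and 24.2% ± 1.78 with erlotinib. Neither drug overlapped EGF, and each difference from EGF had an exact permutation p of 0.1. LAMB3 thus took a larger part of its class with the peptide and a smaller part with the kinase inhibitor. The share of LAMA3 among the alpha chains overlapped between erlotinib (4.36% ± 0.061) and EGF (4.68% ± 0.458, exact permutation p = 0.2). Between the lines LAMA3 went from 17.1% ± 1.53 of the alpha chains in WT to 7.69% ± 0.437 in ΔNLS. LAMB3 went from 62.4% ± 0.377 to 48.4% ± 1.57 of the beta chains (no overlap, exact permutation p = 0.1 each).

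**Figure D3:**
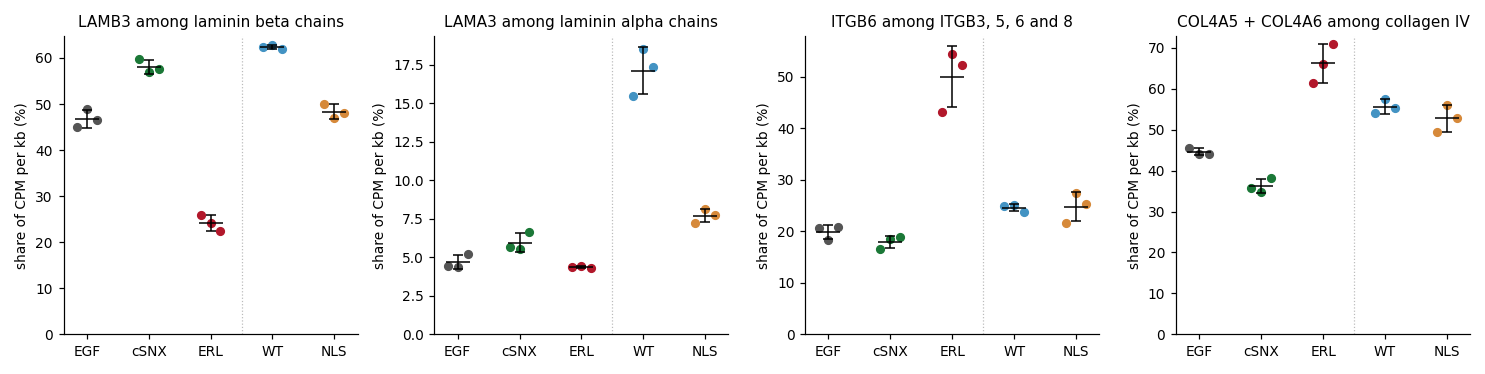
Share of each class's CPM per kilobase held by LAMB3, LAMA3, ITGB6 (among ITGB3, ITGB5, ITGB6 and ITGB8) and COL4A5 with COL4A6, in percent, per library (dots) with mean and SD (n = 3); the dotted line parts the drug experiment from the lines. With ERL the LAMB3 share is the lowest of the 5 groups, at 24.2%, and the ITGB6 share is the highest, at 50.04%.

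Other laminin chains moved as well. LAMC1, the gamma chain of most laminins, was at 113, 120 and 117 CPM in EGF, 162, 165 and 152 CPM with cSNX1.3 (log2FC 0.45 ± 0.08, edgeR adjusted p = 0.00224). With erlotinib it was at 91.2, 91.2 and 86.1 CPM (log2FC −0.38 ± 0.08, edgeR adjusted p = 0.00119). In ΔNLS it was lower by 0.35 on the log2 scale than in WT, so it moved like LAMB3 in all 3 comparisons. LAMB2, a beta chain that takes the place of LAMB1 in some basement membranes, rose with erlotinib from 110, 107 and 107 CPM to 183, 160 and 194 CPM (log2FC 0.73 ± 0.09, edgeR adjusted p = 7.02e-06), opposite to LAMB3. It was at 118, 118 and 115 CPM with cSNX1.3, which did not pass the test (edgeR adjusted p = 0.534). LAMB1 was called higher with cSNX1.3 (log2FC 0.33 ± 0.09, edgeR adjusted p = 0.0482), but not without any one of EGF replicates 1, 2 and 3 or cSNX1.3 replicates 2 and 3 (edgeR adjusted p up to 0.229). It was higher in ΔNLS (log2FC 0.32 ± 0.08, edgeR adjusted p = 0.00475).

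LAMA4 and LAMA5, the alpha chains best known from vessels and from mature epithelia, had the highest levels of the alpha chains per length in EGF, at 5.35 and 7.07 CPM per kilobase. LAMA4 rose with cSNX1.3 from 70.2, 56.7 and 65.4 CPM to 84.9, 91.4 and 87.3 CPM (log2FC 0.46 ± 0.10, edgeR adjusted p = 0.00923, and 0.0609 without cSNX1.3 replicate 2). LAMA5 was at 109, 80.4 and 114 CPM in EGF and 113, 143 and 145 CPM with cSNX1.3 (edgeR adjusted p = 0.135). The spread within EGF came from replicate 2, and LAMA5 was likewise lowest in replicate 2 of WT, at 60.6 CPM beside 77.2 and 78.2 CPM. In ΔNLS, LAMA5 was at 96.9, 102 and 104 CPM (log2FC 0.48 ± 0.09, edgeR adjusted p = 0.000352), so it rose where LAMA3 fell. LAMA2, a chain of muscle laminin present at 2.06 CPM on average in EGF, was lower with erlotinib (log2FC −0.83 ± 0.23, edgeR adjusted p = 0.00802). LAMC3 was higher in ΔNLS (log2FC 1.48 ± 0.36, edgeR adjusted p = 0.00349) at no more than 1.40 CPM in any library.

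Among the integrin alpha chains, 4 of the 11 tested were higher with cSNX1.3 (ITGA2, ITGA3, ITGA5 and ITGA6), beside 3.38% of all genes. ITGAV was lower, and the median log2FC of the 11 was −0.01. Each of the 4 higher chains was lower with erlotinib and lower in ΔNLS, beside 21.2% and 21.0% of all genes lower. ITGA2 (chr5:52989340-53094779), which with ITGB1 forms the main collagen receptor of epithelial cells, had the highest log2FC of all the chains with cSNX1.3. It was at 38.4, 34.2 and 37.4 CPM in EGF and 95.8, 83.4 and 85.9 CPM with cSNX1.3 (log2FC 1.27 ± 0.10, edgeR adjusted p = 2.44e-06). With erlotinib it was at 18.8, 24.3 and 20.1 CPM (log2FC −0.80 ± 0.11, edgeR adjusted p = 1.95e-05). Between the lines ITGA2 fell from 62.5, 60.3 and 67.6 CPM to 32.2, 32.7 and 31.9 CPM (log2FC −0.98 ± 0.07, edgeR adjusted p = 3.04e-08). None of these groups overlapped. The ΔNLS effect minus the cSNX1.3 effect was −2.24 ± 0.13 for ITGA2 (edgeR adjusted p = 5.48e-11), the lowest p of this contrast among the chains.

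ITGA5, the alpha chain of the fibronectin receptor, had the deepest fall of the integrin alpha chains after ITGAL under erlotinib, from 19.5, 19.8 and 17.2 CPM to 5.52, 6.65 and 5.80 CPM (log2FC −1.66 ± 0.12, edgeR adjusted p = 3.56e-08). With cSNX1.3 it was at 33.8, 29.1 and 28.1 CPM (log2FC 0.69 ± 0.11, edgeR adjusted p = 0.00111), above every EGF library. In the lines ITGA5 was at 13.4, 13.1 and 11.5 CPM in WT and 9.06, 6.41 and 7.99 CPM in ΔNLS (log2FC −0.69 ± 0.13, edgeR adjusted p = 0.000375). ITGA3, the alpha chain that binds laminin-332 outside the hemidesmosome, was higher with cSNX1.3 (219, 211 and 214 CPM to 353, 367 and 358 CPM, log2FC 0.74 ± 0.09, edgeR adjusted p = 0.000103). It was lower with erlotinib, at 125, 102 and 110 CPM (log2FC −0.93 ± 0.09, edgeR adjusted p = 7.03e-07), and in ΔNLS (log2FC −0.58 ± 0.08, edgeR adjusted p = 1.5e-05).

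ITGAV, the alpha chain of the vitronectin receptors, went the other way with the peptide. It was at 274, 280 and 287 CPM in EGF and 210, 188 and 199 CPM with cSNX1.3 (log2FC −0.49 ± 0.10, edgeR adjusted p = 0.00689), the only integrin chain called lower with cSNX1.3 among the 18 tested. With erlotinib it was at 260, 343 and 283 CPM, from below to above the EGF values (edgeR adjusted p = 0.567). In ΔNLS it was lower by 0.22 on the log2 scale (edgeR adjusted p = 0.0372), which was lost without WT replicate 1 or 2 or ΔNLS replicate 1 or 3 (edgeR adjusted p up to 0.151).

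The beta chains that pair with ITGAV parted under erlotinib. ITGB5 fell from 277, 304 and 276 CPM in EGF to 146, 117 and 124 CPM (log2FC −1.15 ± 0.10, edgeR adjusted p = 1.99e-07). In contrast, ITGB6, a beta chain of injured or malignant epithelium that binds latent TGF-beta, rose from 69.9, 65.1 and 70.7 CPM to 111, 151 and 144 CPM (log2FC 0.98 ± 0.11, edgeR adjusted p = 2.3e-06). ITGB8 did not pass the test, at 56.2 and 51.6 CPM in the mean (edgeR adjusted p = 0.455). The share of ITGB6 among ITGB3, ITGB5, ITGB6 and ITGB8, per kilobase, was 20.0% ± 1.36 (SD, n = 3) in EGF. It was 50.04% ± 5.94 with erlotinib, with no overlap (exact permutation p = 0.1). This difference follows from the changes of ITGB5 and ITGB6 given above and adds no separate result. With cSNX1.3 the share was 18.0% ± 1.19 and overlapped EGF (exact permutation p = 0.3). In ΔNLS both chains fell, ITGB5 by 0.54 and ITGB6 by 0.51 on the log2 scale (edgeR adjusted p = 3.7e-05 and 2.7e-05). The share was 24.8% ± 2.87 beside 24.6% ± 0.691 in WT, a difference of 0.198 percentage points (exact permutation p = 0.8).

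ITGB1, the beta chain shared by ITGA2, ITGA3, ITGA5, ITGA6 and others, took their directions. It was at 301, 319 and 300 CPM in EGF and at 197, 244 and 212 CPM with erlotinib (log2FC −0.49 ± 0.10, edgeR adjusted p = 0.000772). It was at 434, 380 and 382 CPM with cSNX1.3 (log2FC 0.38 ± 0.10, edgeR adjusted p = 0.0296). The call was lost without EGF replicate 1 or 3 or cSNX1.3 replicate 1 or 2 (edgeR adjusted p up to 0.132) although the groups did not overlap. In ΔNLS it was lower (log2FC −0.63 ± 0.07, edgeR adjusted p = 1.55e-06), from 448 ± 14.8 to 290 ± 5.47 CPM (SD, n = 3).

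Integrins named for white blood cells were also read in these cells. ITGAL, the alpha chain of the leukocyte receptor for ICAM1, fell with erlotinib from 3.92, 3.60 and 3.91 CPM to 1.17, 0.612 and 1.16 CPM (log2FC −1.93 ± 0.24, edgeR adjusted p = 9.29e-06). It rose in ΔNLS from 2.82, 2.42 and 3.30 CPM to 7.86, 6.03 and 8.35 CPM (log2FC 1.37 ± 0.16, edgeR adjusted p = 3.94e-06). Its beta partner ITGB2 was lower with erlotinib (29.8 ± 1.13 to 17.8 ± 0.855 CPM, log2FC −0.74 ± 0.09, edgeR adjusted p = 1.32e-05) but at 61.2 ± 2.33 CPM in WT and 61.9 ± 7.02 CPM in ΔNLS (SD, n = 3, edgeR adjusted p = 0.897). ITGAX was lower in ΔNLS, from 2.89, 2.58 and 2.15 CPM to 1.26, 0.786 and 1.26 CPM (log2FC −1.20 ± 0.23, edgeR adjusted p = 0.000481), and so did not move with ITGAL. The leukocyte markers PTPRC and CD3E were at or near 0 beside these values. The summed level of 5 leukocyte markers, nearly all of it CD14, was 15.1 to 19.8 CPM in EGF, 41.2 to 44.4 CPM with erlotinib, 26.7 to 38.3 CPM in WT and 39.8 to 44.1 CPM in ΔNLS. ITGAM, another partner of ITGB2, was lower with erlotinib (2.26 to 1.32 CPM in the mean, log2FC −0.78 ± 0.24, edgeR adjusted p = 0.0162, and 0.0537 without ERL replicate 3).

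Among the comparisons with EGF or WT, the greatest change of any chain was that of ITGA9 between the lines. ITGA9 (chr3:37452115-37823507), which pairs with ITGB1 and binds tenascin-C and osteopontin, was at 0.94, 0.581 and 0.504 CPM in WT and 7.19, 7.38 and 6.98 CPM in ΔNLS (log2FC 3.43 ± 0.19, edgeR adjusted p = 1.29e-09). All 3 ΔNLS libraries were far above WT, while in the drug experiment ITGA9 stayed at or below 1.37 CPM in every library and was called in neither comparison with EGF. ITGA2B, the alpha chain of the platelet fibrinogen receptor, was higher in ΔNLS, at 1.87, 1.54 and 2.23 CPM beside 0.604, 0.774 and 0.699 CPM (log2FC 1.43 ± 0.25, edgeR adjusted p = 0.000224). With erlotinib ITGA2B was also higher (1.67, 1.52 and 1.77 CPM to 3.14, 2.81 and 3.06 CPM, log2FC 0.86 ± 0.20, edgeR adjusted p = 0.00268). Its partner ITGB3 was too low to test in the drug experiment and at 0.492 CPM in WT and 0.875 CPM in ΔNLS in the mean (edgeR adjusted p = 0.0924).

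**Figure D4:**
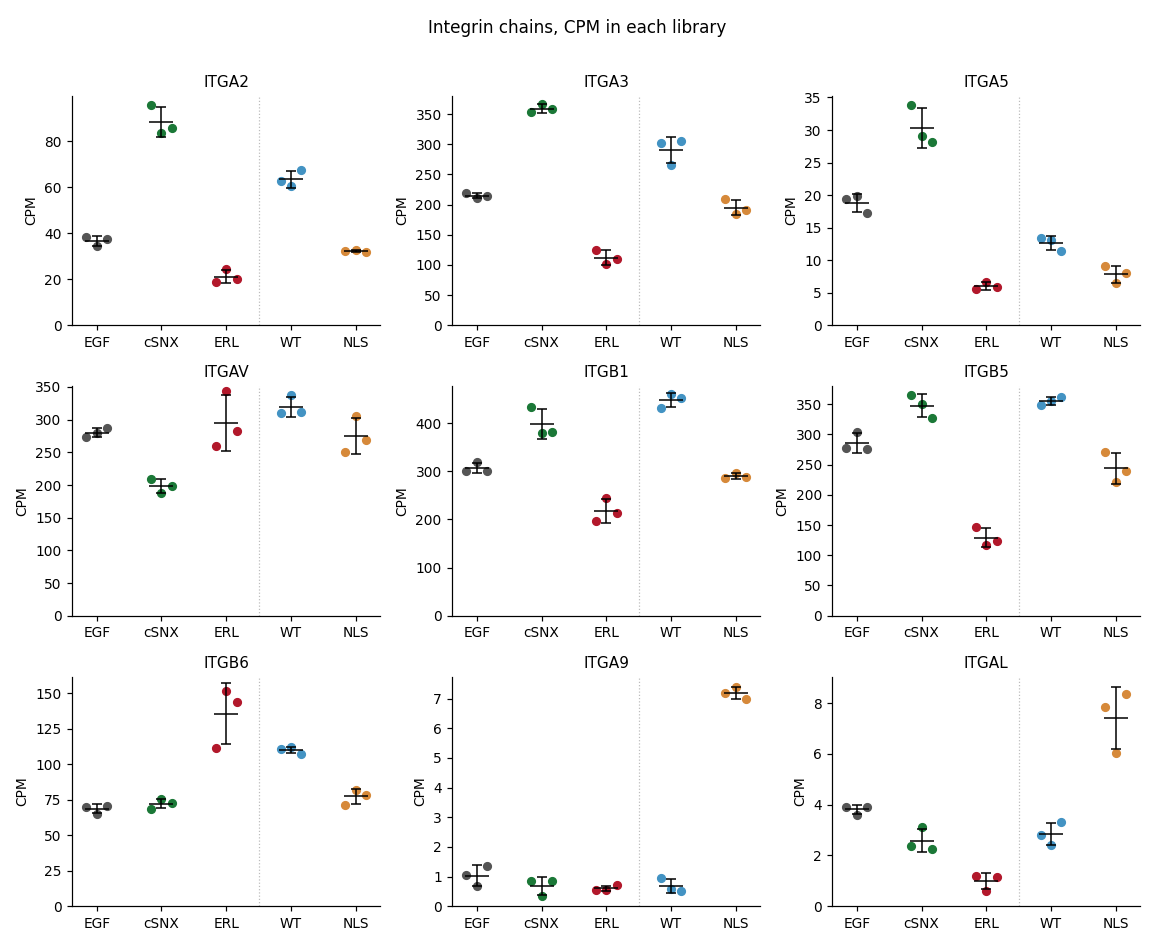
CPM in each library (dots) of 9 integrin chains with the group mean and SD (n = 3), for EGF, cSNX and ERL on the left of the dotted line and WT and NLS on its right; axes start at 0. ITGA2, ITGA3 and ITGA5 are highest with cSNX and lowest with ERL in the drug experiment, ITGAV is lowest with cSNX, ITGB5 and ITGB6 part with ERL, and ITGA9 is high in NLS only, at 6.98 to 7.38 CPM.

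Of the collagens, 22 were tested in the drug experiment. With erlotinib 7 were lower and 2 were higher, with cSNX1.3 4 were higher and 4 were lower, and in ΔNLS 8 of 25 were lower and 6 were higher. Beside these counts, the shares of all genes were 21.2% lower and 22.8% higher with erlotinib, 2.69% lower and 3.38% higher with cSNX1.3 and 21.0% lower and 20.4% higher in ΔNLS. The transmembrane collagen COL13A1 (chr10:69801880-69964275), which sits at sites where cells meet the matrix, had the deepest fall of all the chains with erlotinib, from 19.8, 15.8 and 21.7 CPM to 2.73, 2.24 and 2.36 CPM (log2FC −2.96 ± 0.16, edgeR adjusted p = 1.04e-09). With cSNX1.3 it was at 29.1, 36.7 and 36.8 CPM (log2FC 0.84 ± 0.13, edgeR adjusted p = 0.00074), above every EGF library. Between the lines it was higher in ΔNLS (log2FC 0.47 ± 0.17, edgeR adjusted p = 0.0354), but not without WT replicate 2 or any one of the ΔNLS libraries (edgeR adjusted p up to 0.128). WT replicate 2 held 7.35 CPM beside 11.7 and 13.4 CPM in the other WT libraries.

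COL15A1, a basement membrane proteoglycan collagen, was at 3.63, 3.23 and 4.35 CPM in EGF and 1.14, 0.816 and 0.739 CPM with erlotinib (log2FC −2.03 ± 0.23, edgeR adjusted p = 3.61e-06). In ΔNLS it was at 5.85, 5.15 and 4.21 CPM beside 2.15, 1.90 and 3.05 CPM in WT (log2FC 1.09 ± 0.19, edgeR adjusted p = 0.00019). COL15A1, COL13A1 and ITGAL were thus lower with erlotinib and higher in ΔNLS. COL18A1, the close relative of COL15A1 and source of endostatin, was not called with either drug, at 61.3, 65.4 and 70.1 CPM in the mean in EGF, cSNX1.3 and erlotinib. In ΔNLS it rose from 58.6 ± 2.41 to 81.1 ± 6.50 CPM (SD, n = 3, log2FC 0.47 ± 0.08, edgeR adjusted p = 0.000119).

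Among the fibrillar collagens, COL5A2 and COL5A1 stood out between the lines. COL5A2 (chr2:189031898-189225312), a chain of collagen V, which helps start collagen fibrils, was at 232, 204 and 241 CPM in WT and 63.5, 59.6 and 64.7 CPM in ΔNLS (log2FC −1.85 ± 0.08, edgeR adjusted p = 5.19e-11). Its partner COL5A1 was at 2.82, 2.74 and 2.94 CPM in WT and 1.08, 1.23 and 0.90 CPM in ΔNLS (log2FC −1.40 ± 0.20, edgeR adjusted p = 3.05e-05). No library overlapped for either gene. In the drug experiment, which was scaled separately, COL5A2 was at 63.5, 51.4 and 66.3 CPM in EGF and was lower with erlotinib, at 26.7, 28.3 and 31.4 CPM (log2FC −1.07 ± 0.11, edgeR adjusted p = 1.03e-06). With cSNX1.3 it was at 43.4, 48.0 and 43.9 CPM (log2FC −0.42 ± 0.11, edgeR adjusted p = 0.0242), which was lost without EGF replicate 1 or 3 or cSNX1.3 replicate 1 or 3 (edgeR adjusted p up to 0.136). COL1A1, the main chain of collagen I, was found at 17.3 ± 1.68 CPM in EGF and 13.2 ± 1.97 CPM with erlotinib (SD, n = 3, log2FC −0.39 ± 0.12, edgeR adjusted p = 0.0181). The call was lost without EGF replicate 1 or 3 or ERL replicate 2 (edgeR adjusted p up to 0.0743).

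The collagen IV chains are encoded by pairs of genes that lie head to head. The starts of COL4A1 and COL4A2 have 126 bases between them in the RefSeq table, and those of COL4A6 and COL4A5, on chromosome X, have 379. With erlotinib the COL4A5 and COL4A6 pair rose, with COL4A5 going from 24.4, 21.3 and 26.3 CPM to 40.8, 47.9 and 54.7 CPM (log2FC 0.99 ± 0.12, edgeR adjusted p = 5.92e-06). COL4A6 went from 1.39, 0.631 and 0.554 CPM to 2.11, 1.59 and 2.18 CPM (log2FC 1.21 ± 0.33, edgeR adjusted p = 0.00737). COL4A1, of the pair whose interval is printed above, fell from 8.26 ± 1.22 to 5.60 ± 0.434 CPM (SD, n = 3, log2FC −0.56 ± 0.14, edgeR adjusted p = 0.00455), and COL4A2 had a log2FC of −0.24 ± 0.10 (edgeR adjusted p = 0.0641). COL4A5 and COL4A6 together made up 44.6% ± 0.881 of the collagen IV chains per kilobase in EGF, 66.3% ± 4.79 with erlotinib and 36.2% ± 1.73 with cSNX1.3, with no overlap of either drug with EGF (exact permutation p = 0.1 each). With cSNX1.3, COL4A2 was higher, at 36.5, 40.4 and 35.0 CPM beside 29.5, 26.2 and 30.5 CPM (log2FC 0.37 ± 0.10, edgeR adjusted p = 0.0339). This was lost without any one EGF library or cSNX1.3 replicate 2 (edgeR adjusted p up to 0.195). Between the lines the share was 55.6% ± 1.81 in WT and 52.8% ± 3.21 in ΔNLS and overlapped (exact permutation p = 0.3).

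COL26A1, a collagen of low level in these cells, moved in opposite directions with the peptide and with the mutation. It was at 0.269, 0.226 and 0.308 CPM in WT and 1.72, 1.98 and 1.73 CPM in ΔNLS (log2FC 2.73 ± 0.29, edgeR adjusted p = 1.35e-06). It had passed the filter through ΔNLS alone. In the drug experiment it was at 1.59, 1.08 and 1.59 CPM in EGF and 0.45, 0.662 and 0.834 CPM with cSNX1.3 (log2FC −1.10 ± 0.31, edgeR adjusted p = 0.0483). This call was lost without EGF replicate 1 or 3 or any one of the cSNX1.3 libraries (edgeR adjusted p up to 0.166). The ΔNLS effect minus the cSNX1.3 effect was 3.83 ± 0.41 (edgeR adjusted p = 4.52e-07).

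COL9A2 and COL9A3, chains of collagen IX, a collagen of cartilage that decorates other fibrils, were lower with cSNX1.3. COL9A2 was at 33.2, 31.3 and 31.8 CPM in EGF and 23.9, 25.4 and 23.2 CPM with cSNX1.3 (log2FC −0.41 ± 0.10, edgeR adjusted p = 0.0184, and up to 0.0885 without EGF replicate 1 or 3 or cSNX1.3 replicate 3). COL9A3 was under 1 CPM in both groups (log2FC −1.74 ± 0.45, edgeR adjusted p = 0.0297, and up to 0.106 without EGF replicate 1 or 3 or cSNX1.3 replicate 1 or 2). COL12A1, which lies on the surface of collagen I fibrils, was higher with cSNX1.3 (11.9 ± 0.268 to 16.8 ± 1.37 CPM, SD, n = 3, log2FC 0.50 ± 0.11, edgeR adjusted p = 0.0123), but not without EGF replicate 1 or cSNX1.3 replicate 2 (edgeR adjusted p up to 0.0717). COL6A3, a chain of the beaded filaments, fell with erlotinib from 1.06, 1.63 and 1.29 CPM to 0.205, 0.204 and 0.317 CPM (log2FC −2.44 ± 0.34, edgeR adjusted p = 3.49e-05). It had passed the filter through EGF and not through erlotinib. Its partner COL6A1 was at no more than 0.541 CPM in the drug experiment and at 2.84 to 3.45 CPM in the lines, a difference between experiments that has no test.

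The other calls were smaller or rested on low counts. With erlotinib, COL16A1 was lower (log2FC −0.51 ± 0.15, edgeR adjusted p = 0.0131, and up to 0.0657 without EGF replicate 1 or 3 or ERL replicate 3). ITGA7, a laminin receptor chain of muscle, was higher at no more than 0.879 CPM (log2FC 1.15 ± 0.36, edgeR adjusted p = 0.0169, and 0.0889 without EGF replicate 1). In ΔNLS, COL4A3, COL4A5, COL12A1, COL1A1, LAMB2, COL6A2 and ITGA1 were also lower, with log2FC from −1.25 for ITGA1 to −0.19 for LAMB2, and COL9A3 and COL21A1 were higher, each by 0.64 on the log2 scale. Each of these calls was lost in fits with a library left out. COL4A3 lost it without WT replicate 3 (edgeR adjusted p = 0.0899), COL4A5 without ΔNLS replicate 1 or 3 (edgeR adjusted p up to 0.0652) and LAMB2 without ΔNLS replicate 2 or 3 or WT replicate 1 (edgeR adjusted p up to 0.0933). COL1A1 lost it without ΔNLS or WT replicate 3, ΔNLS replicate 2 or WT replicate 1 (edgeR adjusted p up to 0.174), COL21A1 without replicate 2 or 3 of either line (edgeR adjusted p up to 0.202) and ITGA1 without replicate 1 of either line, ΔNLS replicate 3 or WT replicate 2 (edgeR adjusted p up to 0.103). COL12A1 kept it only without WT replicate 2 (edgeR adjusted p otherwise up to 0.141), COL6A2 only without ΔNLS replicate 2 (otherwise up to 0.166), and COL9A3 lost it without any one of the 6 line libraries (up to 0.159). The other 10 genes tested (COL14A1, COL23A1, COL4A4, COL5A3, COL6A1, COL7A1, ITGAE, ITGB3, ITGB7 and ITGB8) were called in none of the comparisons with EGF or WT. COL7A1, the anchoring fibril collagen that ties the laminin-332 sheet to the tissue below, was at no more than 0.471 CPM in any library, where changes were hardly detectable at this depth.

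**Figure D5:**
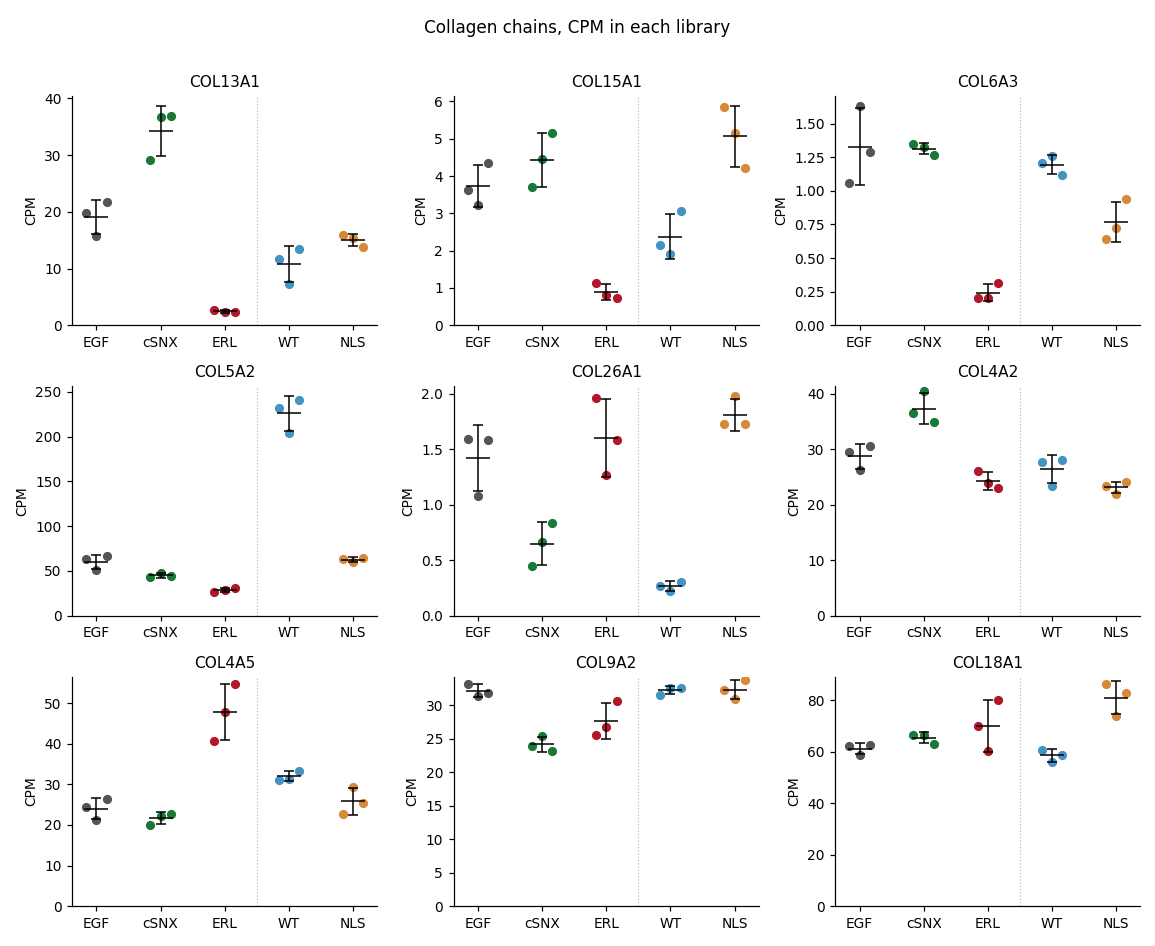
CPM in each library (dots) of 9 collagen chains with the group mean and SD (n = 3), for EGF, cSNX and ERL on the left of the dotted line and WT and NLS on its right; axes start at 0. COL13A1, COL15A1 and COL6A3 are lowest with ERL, COL4A5 is highest with ERL at 40.8 to 54.7 CPM, COL5A2 is highest in WT, and COL26A1 is lower with cSNX than with EGF and higher in NLS than in WT.

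Genes that work with these chains were read from the same fits. Their counts stand beside shares of all genes of 21.2% lower and 22.8% higher with erlotinib, 2.69% lower and 3.38% higher with cSNX1.3 and 21.0% lower and 20.4% higher in ΔNLS, and in ΔNLS the counts of adaptors were near these shares. Of 26 adaptors and kinases that tie integrins to the cytoskeleton, 14 were lower and 5 higher with erlotinib, 6 were higher and 2 lower with cSNX1.3. Of the 25 tested in the lines 6 were higher and 5 lower in ΔNLS. TNS1 and TNS4 are tensins, which bind the tails of beta chains, and they parted under both drugs. TNS1 rose from 14.0 to 48.6 CPM in the mean with erlotinib (log2FC 1.79 ± 0.12, edgeR adjusted p = 7.83e-09). It was at 9.41 CPM with cSNX1.3 (log2FC −0.57 ± 0.12, edgeR adjusted p = 0.00816). TNS4, in turn, was lower with erlotinib (log2FC −1.41 ± 0.16, edgeR adjusted p = 5.04e-06) and higher with cSNX1.3 (log2FC 0.99 ± 0.15, edgeR adjusted p = 0.000536). TNS3, another tensin, had lower means with both drugs, at 92.8 CPM in EGF, 58.8 CPM with cSNX1.3 and 68.4 CPM with erlotinib. Between the lines the mean of TNS1 was 17.3 CPM in WT and 31.1 CPM in ΔNLS. PLEC, which joins ITGB4 to keratin in the hemidesmosome, took the directions of ITGB4 with both drugs, at 341 CPM in the mean in EGF, 535 CPM with cSNX1.3 (log2FC 0.65 ± 0.12, edgeR adjusted p = 0.00227) and 256 CPM with erlotinib (log2FC −0.41 ± 0.12, edgeR adjusted p = 0.00868). In ΔNLS, where ITGB4 was higher, PLEC was lower (log2FC −0.33 ± 0.09, edgeR adjusted p = 0.00861).

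Of the other matrix ligands and receptors, 16 were tested in the drug experiment, where 6 were higher and 3 lower with erlotinib and 2 higher and 1 lower with cSNX1.3. In ΔNLS, 8 of 18 were lower and 4 higher. TNC, or tenascin-C, a ligand of ITGA9, was at 33.2 CPM in the mean in EGF and 8.05 CPM with erlotinib (log2FC −2.03 ± 0.12, edgeR adjusted p = 3.4e-09). It rose from 13.6 to 36.6 CPM between WT and ΔNLS (log2FC 1.43 ± 0.09, edgeR adjusted p = 4.93e-09). SPP1, or osteopontin, the other ligand of ITGA9 named above, went the other way between the lines, from 3.36, 6.19 and 4.70 CPM in WT to at most 1 count in any ΔNLS library (edgeR adjusted p = 2.68e-09). SPP1 had passed the filter through WT alone. NTN4, a netrin that binds laminin gamma chains and disturbs laminin networks, was higher with erlotinib (93.1 to 222 CPM in the mean, log2FC 1.25 ± 0.09, edgeR adjusted p = 1.49e-08). It was lower with cSNX1.3 (log2FC −0.55 ± 0.09, edgeR adjusted p = 0.000699) and in ΔNLS (log2FC −0.69 ± 0.07, edgeR adjusted p = 9.75e-07). Of 18 enzymes that modify or process collagen, 7 were lower and 2 higher with erlotinib, 4 were higher with cSNX1.3, and 7 were higher and 2 lower in ΔNLS. LOX, which crosslinks collagen, was at 8.28 CPM in the mean in EGF. It was at 3.45 CPM with erlotinib (log2FC −1.26 ± 0.17, edgeR adjusted p = 2.68e-05) and 14.4 CPM with cSNX1.3 (log2FC 0.79 ± 0.16, edgeR adjusted p = 0.00573). It was higher in ΔNLS (log2FC 1.56 ± 0.14, edgeR adjusted p = 1.69e-07).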

How the data were processed

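RNA-Seq of polyadenylated RNA covered 15 libraries of MDA-MB-468 cells (3 in each of EGF, cSNX, ERL, shEGFR-WT and shEGFR-NLS). The authors trimmed reads with TrimGalore, aligned them to GRCh38 with STAR and counted pairs per gene with featureCounts without strand; the deposited values are raw counts. The annotation release is not given in the sources used here, and 61399 of 61552 gene IDs matched GENCODE 44. Overlapping genes and near-identical copies may share reads.

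Counts were analysed with edgeR 4.0.16 (TMM, filterByExpr by group, robust quasi-likelihood test, Benjamini-Hochberg adjustment over all genes, threshold 0.05) in R 4.3.3, in fits of the 9 drug libraries, the 6 line libraries and, for the interaction, all 15, after tests on simulated data. The SE of a log2FC was derived from the edgeR test, as the absolute log2FC divided by the square root of the quasi-likelihood F statistic. CPM were scaled by TMM within each experiment. Alternatives were DESeq2 1.42.0, its size factors, other filters, a replicate block, only the groups compared and leaving out each library. Values were given for every chain called with a mean of at least 1 CPM, in full for the 8 with the largest change in each comparison, and for the hemidesmosome chains. The members and lists were chosen with earlier results of these data known. The values of 1 member and 1 marker gene are not reported here. The precision depends on depth, which was 22915676 to 35900649 counts.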

Additional observations from a re-analysis of the deposited data

How the results depend on the processing

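Without one library at a time, the chains called higher numbered 10 to 15 with cSNX1.3 vs. EGF (16 with all libraries) and those called lower 1 to 5 (5 with all), and the fit of the EGF and cSNX1.3 libraries alone gave 3 lower; the cause was not tested. The other ranges were 5 to 7 higher and 19 to 24 lower with erlotinib vs. EGF, 9 to 12 higher and 16 to 23 lower in ΔNLS vs. WT, 26 to 31 higher and 9 to 10 lower in cSNX1.3 vs. erlotinib, and 7 to 9 higher and 19 to 22 lower in the interaction. With at least 10 counts in every library, 40 chains remained to be tested in the interaction and 5 of them were higher instead of 9. Calls that held without any one library numbered 23 of 27 with erlotinib, 11 of 21 with cSNX1.3 and 23 of 36 in ΔNLS. Calls that held in all the other alternatives that gave the gene a result numbered 27, 16 and 30, respectively. With DESeq2 as the test, COL6A2, COL9A3, COL12A1, COL17A1 and COL21A1 were no longer called in ΔNLS. LAMB1 with cSNX1.3 was kept in 2 of 6 of these alternatives. Of 989 log2FC values, 1 changed sign: COL17A1 in erlotinib vs. EGF, at −0.14 with all libraries, ranged from −0.35 without EGF replicate 2 to 0.0061 without EGF replicate 3. The replicate block gave 13 higher and 4 lower with cSNX1.3, 6 and 21 with erlotinib, 11 and 20 in ΔNLS, 28 and 10 in cSNX1.3 vs. erlotinib and 9 and 22 in the interaction. Replicate numbers did not pair the samples, since libraries with the same number had correlations of −0.232 to 0.286 in their deviations from the group means. EGF replicate 2 had a correlation of 0.434 with cSNX1.3 replicate 1 and of −0.38 with cSNX1.3 replicate 3. The source of this spread was not tested. Chains under about 1 CPM rest on few counts in each library.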
